A study of Eriocheir sinensis with 2 samples.

Results

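The ion pumps, proton ATPases, ion exchangers and carbonic anhydrases of the Y-organ of *Eriocheir sinensis*, the Chinese mitten crab, were examined as 26 of the 47966 unigenes (assembled transcripts) with reads. A unigene was included when its best protein hit in the nr database was named with one of the terms V-type proton, vacuolar ATP, vacuolar proton, H+ ATPase, Na+/K+, sodium/potassium, calcium-transporting ATPase, Ca2+-ATPase, calcium ATPase, sodium/hydrogen exchanger, sodium/calcium exchanger, bicarbonate or carbonic anhydrase, and when the hit did not come from a ciliate. The rule reads the annotation text, and 0 unigenes were left out for a ciliate hit. The best hits of 16 unigenes are insect proteins and those of 8 are crustacean proteins, while for the remaining 2 the annotation gives no species. The terms H+ ATPase, sodium/calcium exchanger and bicarbonate matched 0 unigenes. By role, as read from the annotated names, 6 unigenes were V1 subunits of the V-type ATPase and 4 were V0 subunits. The sector of Unigene9678_A0A and Unigene25373_A0A, both placed in V1, is not certain, as given below. Of the rest, 2 were Na+/K+-ATPase subunits, 4 were calcium ATPases, 5 were sodium/hydrogen exchangers, 2 were carbonic anhydrases and 3 had other roles. The last 3 are no pumps, since 2 encode the Na+/K+/2Cl- cotransporter and 1 encodes VMA21, an assembly factor.

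The Y-organ is the gland that secretes ecdysteroids, the moulting hormones. The crabs behind C0, 30 in number, were left untreated, and the 30 crabs behind C1 had the eyestalk removed, all of 5 to 6 g body weight, and the glands of C1 were taken 48 h after the operation. The eyestalk holds the neurosecretory tissue whose peptides restrain the Y-organ, and no sham operation is described for C0, so that wounding and loss of the eyestalk cannot be told apart. Each group gave 1 sequencing library, whether all crabs of a group were pooled is not given in the sources used here, and no difference has a replicate check. In units of 1e+06 reads, the unigene totals were 4.15 for the C0 library and 3.75 for the C1 library. The label of the tissue was checked with markers of ecdysteroid synthesis, whose 6 unigenes held 277764 reads in C0 against 259900 in C1. Per 1e+06 reads these were 66891 and 69291, a summed log2 ratio (C1 over C0) of 0.05. Nearly all of the reads, 277643 and 259777, lay on 3 unigenes with the term ecdysone biosynthesis, so the sum mostly reflects these. The term ecdysteroid, carried by 5 unigenes, held 446 reads in C0 against 782 in C1. Single log2 ratios of the marker unigenes with at least 50 reads ranged from -0.08 to 1.16. The terms CYP302A1, CYP315A1 and neverland matched 0 unigenes in these spellings.

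V-type ATPases use ATP to pump protons into organelles or across the plasma membrane, with a soluble V1 sector that splits ATP and a membrane sector, V0, that carries the protons. Na+/K+-ATPase exports sodium and imports potassium, and the gradient it builds drives exchangers and cotransporters such as the sodium/hydrogen exchangers. Carbonic anhydrase forms bicarbonate and protons from carbon dioxide and water, and in crab gills it works beside both pumps in salt uptake and acid-base balance.

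After eyestalk ablation 3 V-ATPase unigenes were lower by the criteria of the study, no Na+/K+-ATPase or exchanger unigene met them, and carbonic anhydrase had few reads. A differentially expressed unigene (DEU) had an adjusted p of at most 0.001 in an exact binomial test of its reads, with Benjamini-Hochberg adjustment over all unigenes, and a log2 ratio (C1 over C0) whose size exceeded 1. The test compares these 2 libraries and not the 2 conditions. Of the 26 unigenes, 3 were DEUs, all of them lower in C1, where 1.7% of all unigenes tested were DEUs lower in C1, 2.32% were DEUs higher in C1 and 4.03% were DEUs in either direction. The 3 were V-ATPase subunits B, E and the 16 kDa proteolipid. None of the 3 calls stood when edgeR's exact test was run with a preset coefficient of variation of 0.2 between libraries, which left 295 DEUs among all unigenes. A call needs enough reads, and 14 of the 26 unigenes had at least 50 reads in both libraries together. Among the unigenes of that depth, 6.4% were DEUs lower in C1 and 8.66% were DEUs higher in C1.

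The 26 unigenes together held 0.0822% of the reads of C0 and 0.0576% of those of C1, with 3413 and 2162 reads. Their summed log2 ratio was -0.51 with a 95% interval of -0.59 to -0.43 that covers counting error only, as do all intervals given here. The sign rests on the choice of terms, since with the 22 unigenes that name the same proteins in other words, most of whose reads are Na+/K+-ATPase, the sum was 10403 reads in C0 and 9720 in C1, and the summed log2 ratio 0.05 (0.01 to 0.09). Over the 21 unigenes with at least 10 reads, the median log2 ratio was -0.31, beside a median of 0.15 over all unigenes with at least 10 reads, and 14 of the 21 were under 0. With at least 50 reads the medians were -0.24 for the 14 unigenes and 0.20 for all unigenes, and 9 of the 14 lay under 0, where 38.7% of all unigenes of that depth did. Reads were found in both libraries for 24 of the 26 and in C0 alone for 2. In bulk RNA, fewer cells of a type and less RNA per cell cannot be told apart.

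**Figure D1:**
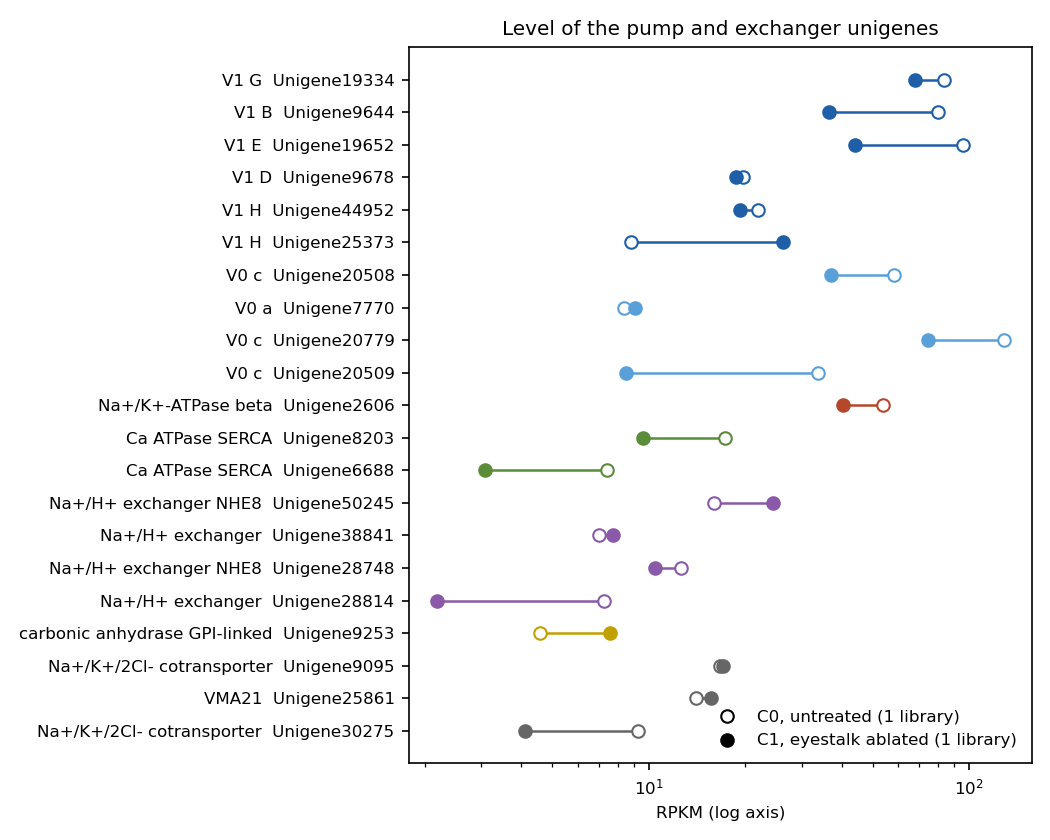
RPKM (reads per kilobase of unigene per 1e+06 unigene reads, log axis) of the 21 unigenes with at least 10 reads, ordered by role and within a role by reads; open circles are C0, filled circles are C1, 1 library each, so no error bar is drawn. The V1 subunits B and E and 3 proteolipid (c) unigenes have the open circle to the right of the filled one, and the subunit H unigene Unigene25373_A0A has it to the left, at 8.82 in C0 and 26.3 in C1.

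In the V1 sector, subunits B and E fell by more than the DEU limit, and the other unigenes stayed within it or had few reads. Unigene9644_A0A encodes subunit B, which forms the ATP-binding head together with subunit A, and its best hit is the K form of the shore crab Carcinus maenas. It had 520 reads in C0 against 215 in C1, or an RPKM of 79.8 and 36.5. The log2 ratio was -1.12 (95% interval -1.36 to -0.90, adjusted p = 7.92e-22 in the exact binomial test). In the ranking of unigenes by RPKM it moved from place 1323 in C0 to place 4379 in C1. Reads covered 99.7% of its 1569 bases in C0 and 95.1% in C1, so that reads lay along nearly the whole unigene in both libraries.

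Subunit E belongs to the peripheral stalk that holds the head in place. Its unigene, Unigene19652_A0A of 1285 bases, had 510 reads in C0 against 212 in C1, and the RPKM was 95.6 and 44.0. The log2 ratio of -1.12 (-1.35 to -0.89, adjusted p = 4.35e-21, exact binomial test) was close to that of subunit B. Subunit G is the partner of E in the stalk, and its unigene was the most read of the set. Unigene19334_A0A, named a subunit G-like protein, is 2717 bases long and had 945 reads in C0 against 689 in C1, with an RPKM of 83.8 and 67.6. Its log2 ratio was -0.31 (-0.45 to -0.17, adjusted p = 3.42e-04, exact binomial test), which is no DEU, and its interval does not meet those of B and E.

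The remaining V1 unigenes were read less. Unigene9678_A0A, annotated as subunit D 1, a name that does not separate the D subunit of the V1 rotor from the d subunit of V0, had 77 reads in C0 against 66 in C1 and a log2 ratio of -0.07 (-0.55 to 0.40). The name of subunit H, which couples ATP splitting to proton transport, was held by 2 unigenes of the set with different values. Unigene44952_A0A had 69 reads in C0 against 55 in C1, with a log2 ratio of -0.18 (-0.69 to 0.33). Unigene25373_A0A had 13 reads in C0 against 35 in C1, and its log2 ratio of 1.54 (0.67 to 2.48, adjusted p = 0.00572, exact binomial test) missed the limit of 0.001. It is short, at 355 bases, and in both libraries its reads covered a small share of the length, 24.5% in C0 and 24.8% in C1. It was the only V-ATPase unigene of the set whose interval lay above 0. Summed over the 6 unigenes placed in V1 by name, the reads were 2134 in C0 against 1272 in C1. The summed log2 ratio was -0.60 (-0.70 to -0.50), and without the subunit G unigene it was -0.88.

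In the V0 sector, the 3 unigenes for the 16 kDa proteolipid, the c subunit whose ring carries the protons through the membrane, had lower values in C1. The unigene annotated as the large a subunit did not. Unigene20509_A0A, of 501 bases, fell from 70 reads in C0 to 16 in C1, and its RPKM was 33.7 and 8.51. With a log2 ratio of -1.95 (-2.76 to -1.21, adjusted p = 8.92e-07, exact binomial test) it stood lowest among the 14 unigenes with at least 50 reads. Its reads lay on 49.9% of the length in C0 and on 46.7% in C1. Unigene20508_A0A has the same best hit, a proteolipid of 16 kDa, and since only uniquely mapped reads were counted, any read that fits both would be missing from both counts, so that the values of both are uncertain. This longer unigene, of 1413 bases, had 343 reads in C0 against 197 in C1, with a log2 ratio of -0.65 (-0.91 to -0.40, adjusted p = 8.59e-06, exact binomial test).

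The last proteolipid unigene, Unigene20779_A0A, had the highest RPKM of the set in both libraries, 128 in C0 and 74.4 in C1, from 128 and 67 reads on 240 bases. Its log2 ratio was -0.78 (-1.21 to -0.36, adjusted p = 0.00348, exact binomial test), and it was no DEU. Summed over the 3 unigenes, the proteolipid had 541 reads in C0 against 280 in C1, for a log2 ratio of -0.80 (-1.01 to -0.60). The unigene annotated as the a subunit, the large membrane protein through which protons reach the ring, gave another picture. The fragments named V-H-ATPase subunit A, given below, may also belong to the a subunit. Unigene7770_A0A had 115 reads in C0 against 112 in C1, with a log2 ratio of 0.11 (-0.27 to 0.48), which TMM scaling turned to -0.06. This unigene, of 3301 bases, had an RPKM of 8.39 and 9.05, and the former was the lowest of all V-ATPase unigenes in C0. VMA21, which assists the assembly of V0 in yeast and animals, had 30 reads in each library on Unigene25861_A0A.

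**Figure D2:**
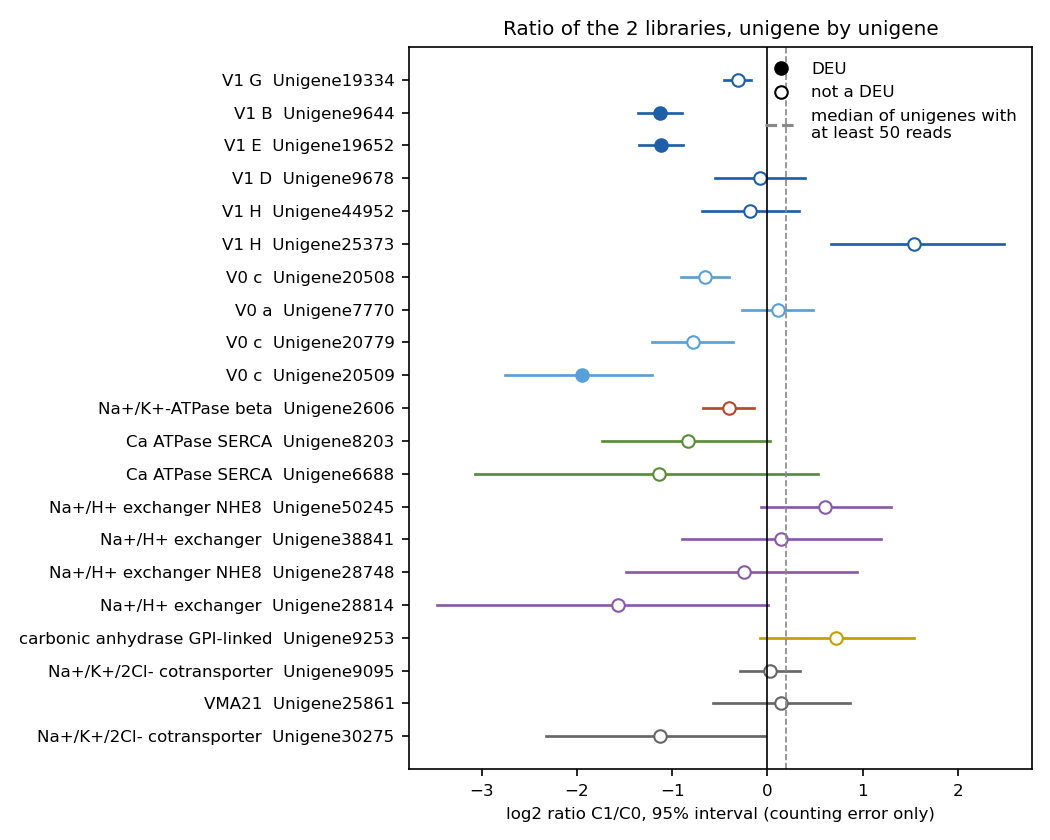
Log2 ratio (C1/C0) of the 21 unigenes with at least 10 reads, with the 95% interval from counting error; filled points are DEUs, open points are not, the solid line is 0 and the dashed line (0.20) marks the median over all unigenes read 50 times or more. The 3 filled points are B, E and 1 of the 3 c unigenes, at -1.12, -1.12 and -1.95, and no filled point lies to the right of 0.

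The V-ATPase is also annotated in words that the terms above do not hold, and these unigenes, gathered after their values had been seen, had lower values in C1 as well. The largest group was 5 fragments with 1 common best hit, named V-H-ATPase subunit A. The capital letter does not settle whether the catalytic subunit A of V1 or the a subunit of V0 is meant. By GO terms, Unigene45652_A0A carries the function terms of the a subunit unigene Unigene7770_A0A, and Unigene53285_A0A is marked intrinsic to membrane. None of the 5 carries the nucleotide binding term of subunit B, and Unigene1890_A0A and Unigene12292_A0A have no GO terms. Whether the a subunit was lower in C1 is thus not settled. The fragments summed to 454 reads in C0 against 179 in C1, for a log2 ratio of -1.20 (-1.45 to -0.95). DEUs lower in C1 were Unigene1890_A0A, from 146 to 49 reads, Unigene12292_A0A, from 86 to 32 reads, and Unigene29425_A0A, from 69 to 19 reads. The other fragments were Unigene45652_A0A, with 72 and 31 reads and an adjusted p of 0.00643 in the exact binomial test, which TMM scaling made a DEU, and Unigene53285_A0A, with 81 and 48 reads and a log2 ratio of -0.60 (-1.12 to -0.10). All 5 may be pieces of 1 transcript and are not independent of each other.

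A further subunit H unigene, Unigene25160_A0A, fell from 74 to 20 reads (log2 ratio -1.71, -2.45 to -1.04, adjusted p = 5.90e-06, exact binomial test), so that the 3 unigenes named subunit H gave log2 ratios of -1.71, -0.18 and 1.54. They have best hits in different species, and whether they belong to 1 gene was not tested. Unigene44952_A0A and Unigene25160_A0A carry the same GO terms. Unigene25373_A0A carries no GO term for ATPase activity, so its place in the V1 sector rests on the name. GO terms of the V-type ATPase complex marked 6 more unigenes whose protein names carry no subunit. Of these, Unigene45483_A0A, of 2220 bases, fell from 343 to 125 reads, with a log2 ratio of -1.31 (-1.60 to -1.02, adjusted p = 3.62e-18, exact binomial test), and it was the only DEU of the 6. Unigene21199_A0A had 358 and 202 reads and a log2 ratio of -0.68 (-0.93 to -0.43), and the other 4 ranged from -1.28 to -0.28.

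All 22 V-ATPase unigenes together, found by any of the 3 ways, had 4602 reads in C0 against 2600 in C1, for a summed log2 ratio of -0.68 (-0.75 to -0.61). Of the 22, 20 had a log2 ratio under 0, 8 were DEUs lower in C1 and 0 were DEUs higher in C1, beside the 6.4% and 8.66% given above for all unigenes with at least 50 reads. Under the preset coefficient of variation of 0.2, or with a log2 limit of 2, 0 of the 22 were DEUs. The exceptions to the negative sign were the a subunit unigene Unigene7770_A0A, at 0.11, and the subunit H unigene Unigene25373_A0A, at 1.54. Because several unigenes carry pieces of 1 subunit, 22 is not a number of genes.

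Muscle markers, ciliate unigenes and, only without anti-lipopolysaccharide factor, the hemocyte markers also had lower sums in C1. Muscle proteins, in 75 unigenes, held 10095 reads in C0 against 6299 in C1, a summed log2 ratio of -0.53 (-0.58 to -0.49). Of the 75, 24 had at least 50 reads, 6 were DEUs lower in C1 and 1 was a DEU higher in C1. Of all unigenes tested 1.7% and 2.32% were such DEUs, and of those with at least 50 reads 6.4% and 8.66%. The muscle terms differed. In reads not scaled to library size, troponin had 4039 in C0 and 1820 in C1, and myosin light chain 2782 and 1608. Tropomyosin had 613 and 416, myosin heavy chain 2425 and 2235, and projectin, in 40 unigenes, 224 and 214. Titin had 10 and 3, and sarcoplasmic calcium-binding protein 2 and 3. The terms muscle actin and twitchin matched 0 unigenes. Without the unigenes named non-muscle myosin, which the term myosin heavy chain also matched, the muscle list held 8756 reads in C0 and 4778 in C1, a summed log2 ratio of -0.73 (-0.78 to -0.68). Hemocyte markers other than anti-lipopolysaccharide factor held 3012 and 1971 reads, a summed log2 ratio of -0.46 (-0.55 to -0.38), and with that factor, whose reads were 11165 and 14647, the sum of the list was higher in C1. Both exclusions were made after the values had been seen. Unigenes with a ciliate best hit, 183 in number, held 32495 and 10294 reads, a summed log2 ratio of -1.51. Of these, 99 were DEUs lower and 0 were DEUs higher in C1, beside the same shares of all unigenes. Unigenes with a ciliate best hit were excluded when the 22 V-ATPase unigenes were chosen, so their absence there is no result. A ciliate V-type unigene left out in this way, Unigene35271_A0A, had 6 reads in C0 against 0 in C1. The part of muscle, hemocyte or ciliate RNA in the V-ATPase values was not tested.

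The mitochondrial ATP synthase, an F-type proton ATPase that runs in the opposite direction and makes ATP, had higher values in C1 in all unigenes with at least 50 reads. Its 11 unigenes held 4992 reads in C0 against 8872 in C1, a summed log2 ratio of 0.98 (0.93 to 1.03). Among all unigenes with at least 50 reads, 8.66% were DEUs higher in C1 and 6.4% were DEUs lower. Of the 11, 0 were DEUs lower in C1 and 3 were DEUs higher in C1. They were subunit alpha (Unigene20868_A0A, from 1198 to 2324 reads, RPKM 139 and 298), subunit beta (Unigene20711_A0A, from 999 to 1957 reads, RPKM 85.9 and 186) and subunit gamma (Unigene19794_A0A, from 453 to 996 reads, RPKM 99.8 and 243), and only gamma kept the call with TMM scaling or with unscaled counts, where the other 2 came under the limit of 1. With a preset coefficient of variation of 0.2, or a log2 limit of 2, 0 of the 11 were DEUs. The largest adjusted p of the 3, that of gamma, was 9.45e-58 in the exact binomial test. The 9 unigenes with at least 50 reads ranged from 0.52 to 1.28, where the median of all unigenes of that depth was 0.20 and 38.7% lay under 0. The 20 V-ATPase unigenes of that depth ranged from -1.95 to 0.11, and did not overlap with those of the ATP synthase. Part of these 20 were gathered after values had been seen, and the 9 found by the chosen terms had the same range. With a minimum of 10 reads the 2 families overlapped, through the V-ATPase subunit H unigene Unigene25373_A0A, at 1.54 from 48 reads, and the F1 beta unigene Unigene15133_A0A, at -0.30 from 12 reads.

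**Figure D3:**
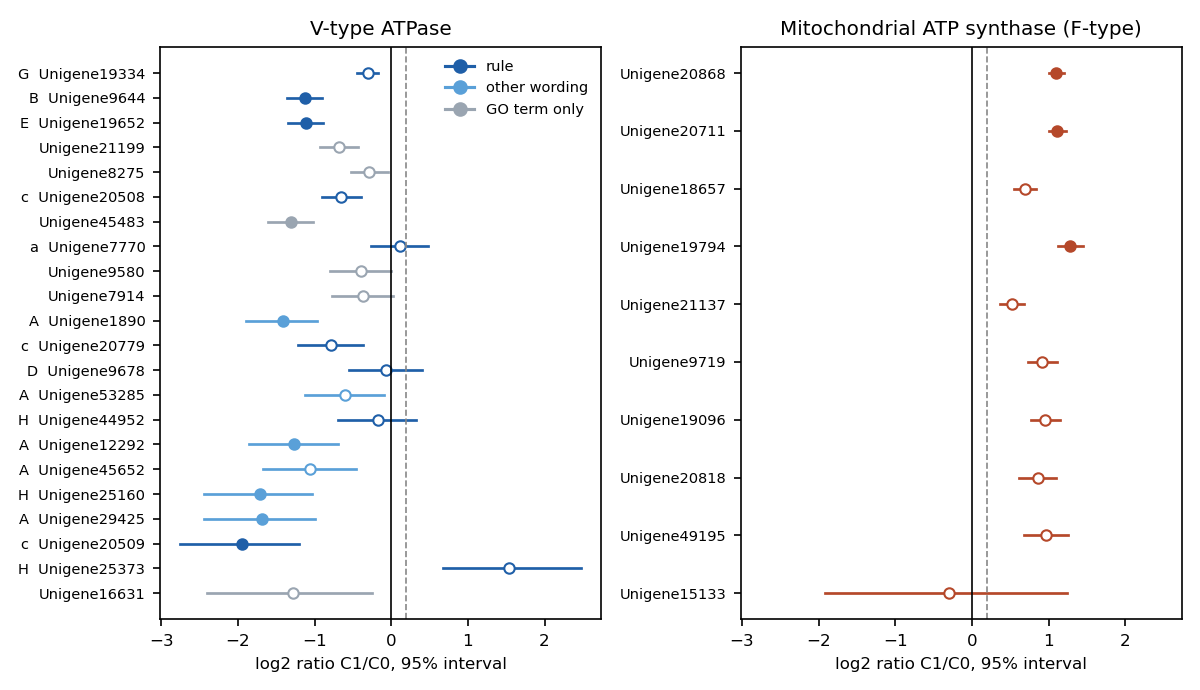
Log2 ratio (C1/C0) with 95% interval of the 22 V-ATPase unigenes (left, colour by the way they were found, letter for the annotated subunit) and of the 10 mitochondrial ATP synthase unigenes with at least 10 reads (right), each ordered by reads; filled points are DEUs and the dashed line is the median of all unigenes with at least 50 reads. On the left 20 points lie under 0, and on the right the 9 best-read unigenes lie between 0.52 and 1.28.

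Na+/K+-ATPase was present mainly in unigenes that the annotation names in other words, and none of its unigenes was a DEU. Within the chosen terms, the beta-2 subunit Unigene2606_A0A, of 1233 bases, had 275 reads in C0 against 187 in C1, an RPKM of 53.7 and 40.4 and a log2 ratio of -0.41 (-0.68 to -0.14, adjusted p = 0.0284, exact binomial test). The beta subunit is the glycoprotein that brings the pump to the membrane. The alpha-like unigene, Unigene50605_A0A, named for the catalytic subunit, had 1 read in C0 and 3 in C1.

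The abundant forms behaved otherwise. Unigene20715_A0A, a beta subunit of 2721 bases, had 4932 reads in C0 against 5472 in C1 and an RPKM of 437 and 536. With this it stood at place 245 of the C0 ranking and at place 195 in C1, above every V-ATPase unigene. Its log2 ratio of 0.30 (0.24 to 0.35, adjusted p = 1.05e-23, exact binomial test) came to 0.13 with TMM scaling. The intervals of the 2 beta unigenes lie on opposite sides of 0, and on the TMM scale the values were -0.58 and 0.13.

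The catalytic alpha subunit, C isoform, is Unigene19572_A0A of 6759 bases, with 1388 reads in C0 against 1793 in C1 and an RPKM of 49.5 and 70.7. Its log2 ratio was 0.52 (0.41 to 0.62, adjusted p = 8.61e-22, exact binomial test), or 0.35 with TMM scaling, which is under the DEU limit in either case. A unigene for the D isoform of the alpha subunit, CL1798.Contig1_A0A, had 11 and 5 reads. Both abundant subunits were thus above the median of all unigenes, and per length the beta unigene had the higher RPKM in both libraries.

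**Figure D4:**
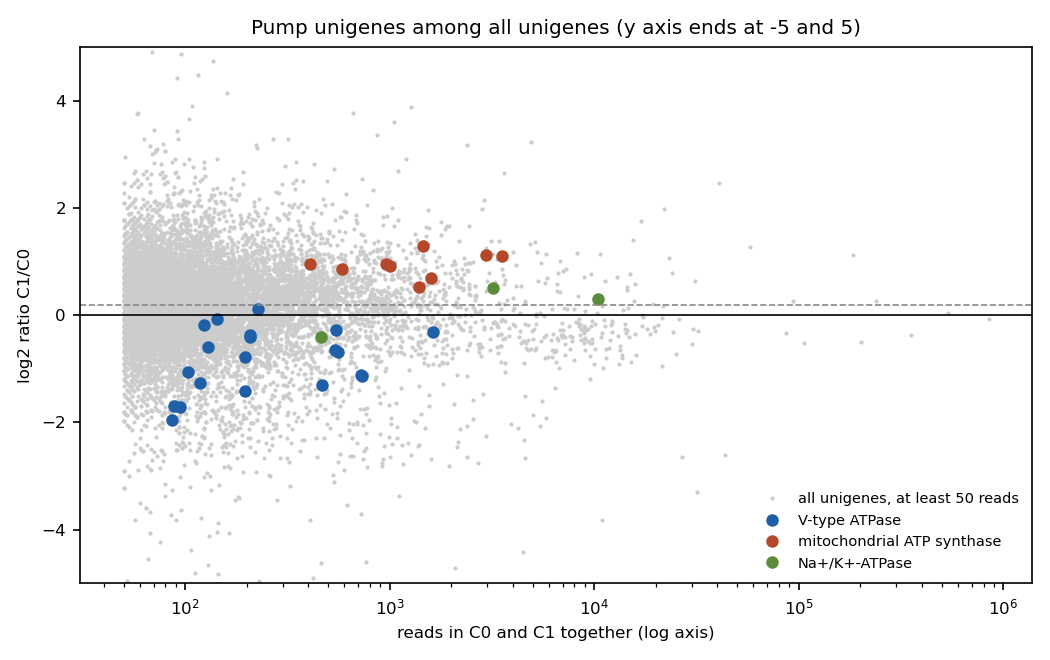
Log2 ratio (C1/C0) against reads in both libraries together (log axis) for the 11398 unigenes with at least 50 reads (grey, of which 25 lie outside the y axis), with V-ATPase (blue), mitochondrial ATP synthase (red) and Na+/K+-ATPase (green) unigenes of that depth, 1 library per group. The blue points range from -1.95 to 0.11 and the red points from 0.52 to 1.28. The 2 best-read green points stand at 0.30 and 0.52, and the other green point stands at -0.41.

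The calcium ATPases, which clear calcium from the cytosol, gave no call and had few reads. SERCA, the pump of the endoplasmic reticulum, was hit by Unigene8203_A0A, with 30 reads in C0 against 15 in C1 and a log2 ratio of -0.83 (-1.73 to 0.03, adjusted p = 0.309, exact binomial test). A further SERCA unigene, Unigene6688_A0A, had 8 and 3 reads. The plasma membrane pump PMCA3, on Unigene8907_A0A, had 1 read in C0 and 2 in C1, and the type 2C pump of the secretory pathway, on Unigene22986_A0A, had 1 and 0, where a count of 0 allows up to 0.800 reads per 1e+06 reads in C1. All 4 summed to 40 reads in C0 against 20 in C1, for a log2 ratio of -0.85 (-1.62 to -0.09) that includes values close to no difference. SERCA is most abundant in muscle, whose markers had a lower sum in C1, though not in every term, as given above. The part of muscle RNA in the calcium ATPase sum was not tested. The 3 unigenes annotated only as SERCA added 22 and 16 reads (Unigene14334_A0A), 4 and 4 reads (Unigene19105_A0A) and 3 and 0 reads (Unigene19106_A0A).

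Sodium/hydrogen exchangers trade a proton for a sodium ion, at the cell surface or, as for the types 7 and 8, in organelles. The 5 unigenes summed to 70 reads in C0 against 68 in C1, for a log2 ratio of 0.10 (-0.37 to 0.58), which came to -0.06 with TMM scaling and to -0.40 without the best-read unigene. That unigene, Unigene50245_A0A, for exchanger 8, had 29 and 40 reads and a log2 ratio of 0.60 (-0.07 to 1.29). A second unigene for exchanger 8, Unigene28748_A0A, had 12 and 9 reads. The other unigenes were Unigene38841_A0A, with 14 reads in each library, Unigene28814_A0A, whose best hit is from Carcinus maenas, with 11 and 3 reads, and Unigene44465_A0A, for exchanger 7, with 4 and 2 reads. The intervals of all 5 unigenes included 0. Outside the chosen terms, Unigene21722_A0A, similar to a Na+/H+ exchanger domain protein, had 5 reads in C0 against 19 in C1, for a log2 ratio of 1.97 (0.70 to 3.44, adjusted p = 0.0201, exact binomial test), and it was no DEU.

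The Na+/K+/2Cl- cotransporter, which brings sodium, potassium and chloride into the cell along the sodium gradient, had similar values in both libraries on its longer unigene. Unigene9095_A0A, of 2374 bases, had 165 reads in C0 against 152 in C1, an RPKM of 16.7 and 17.1, and a log2 ratio of 0.03 (-0.29 to 0.35) that TMM scaling moved to -0.14. The interval leaves out a change by the DEU limit in either direction. The shorter unigene with the same annotation, Unigene30275_A0A of 521 bases, had 20 and 8 reads and a log2 ratio of -1.12 (-2.33 to -0.02, adjusted p = 0.268, exact binomial test).

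Carbonic anhydrase was represented by a membrane-anchored and a cytoplasmic form with log2 ratios of opposite sign, and neither was a DEU. The anchored form, linked to glycosyl-phosphatidylinositol and with a best hit from the blue crab Callinectes sapidus, is Unigene9253_A0A of 1055 bases. It had 20 reads in C0 against 30 in C1, an RPKM of 4.57 and 7.58, and a log2 ratio of 0.72 (-0.07 to 1.54, adjusted p = 0.358, exact binomial test). The other unigene found by its name, Unigene26665_A0A, had 2 reads in C0 against 0 in C1.

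The cytoplasmic form, Unigene41002_A0A of 914 bases, was missed by the terms because the deposited annotation spells the enzyme "anydrase". It had 73 reads in C0 against 36 in C1, an RPKM of 19.2 and 10.5 and a log2 ratio of -0.86 (-1.45 to -0.30, adjusted p = 0.0281, exact binomial test). With TMM scaling the log2 ratio was -1.03, still short of the limit on the adjusted p. The intervals of the anchored and the cytoplasmic form do not overlap. In the study's metabolic network the carbonic anhydrase reaction carries these 2 unigenes and Unigene32023_A0A, which has no nr annotation and had 1 read in C0 and 0 in C1. Over the 3 unigenes named for the enzyme, the reads were 95 in C0 and 66 in C1, for a log2 ratio of -0.38 (-0.83 to 0.07).

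Bicarbonate exchange was read only from unigenes named anion exchange proteins. Unigene3622_A0A had 5 reads in each library, Unigene47418_A0A had 9 in C0 and 1 in C1, and Unigene38516_A0A had 5 in C0 and 1 in C1. The Na/Ca exchanger, Unigene13676_A0A, had 2 and 1 reads. None of these unigenes was a DEU.

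Lists of neighbouring functions are set beside these values. Of all unigenes tested, 4.03% were DEUs in either direction, and of those with at least 50 reads 15.1% were. No list was tested against these shares. In the list for chloride, potassium, ammonium and water transport, 0 of 22 unigenes were DEUs, and the summed reads were 167 in C0 and 138 in C1. In the list for calcium stores and calcium entry, 2 of 36 unigenes were DEUs, both higher in C1: calmodulin-1 (Unigene20051_A0A, from 420 to 901 reads, log2 ratio 1.25), the calcium sensor of the cytosol, and a calcium/calmodulin-dependent protein kinase type 1 (Unigene9149_A0A, from 77 to 169 reads, log2 ratio 1.28). Proton pump parts and regulators under other names numbered 12 unigenes, of which the subunit H unigene Unigene25160_A0A given above was the single DEU. Arginine kinase and adenylate kinase, the enzymes that buffer ATP, were read from 1 unigene each, neither was a DEU, and together they had 6301 reads in C0 against 8185 in C1.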

How the data were processed

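Y-organ RNA was sequenced by the authors as 2 single-end libraries, C0 and C1. Clean reads were mapped by the authors with SOAPaligner/soap2 (version not given in the sources used here) to the unigenes of an earlier transcriptome, with annotation from that transcriptome. The authors deposited uniquely mapped read counts without normalization, RPKM calculated from them, and the coverage by reads as a percent of each unigene's bases. The deposited comparison table also holds the authors' log2 ratio, p-value and false discovery rate, which were not used, and value columns without a sample numbered 0. The RefSeq gene table held 0 of the identifiers, so no genome position or sequence is given.

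Library sizes were the summed unigene reads, 4.15 and 3.75 in units of 1e+06. The comparison of counts used an exact binomial test, two-sided, against the C1 share of all reads (47.5%), with Benjamini-Hochberg adjustment over 47966 unigenes; the thresholds are those of the study. Log2 ratios had 0.5 read added to each library, except those of summed reads, and 95% Wilson intervals. A count of 0 was given a limit of 3 counts, and unigenes with at most 3 reads in a library are given as reads. With 1 library per group no spread can be estimated, so edgeR's quasi-likelihood test could not be fitted. PCR duplicates are not marked, so intervals and limits cover counting error only. Alternatives were TMM factors from edgeR 4.0.16 (R 4.3.3), median-of-ratios factors (1 for both libraries, which amounts to unscaled counts), Fisher's exact test, edgeR's exact test under a preset coefficient of variation (0.2 or 0.4), other minimum reads, other thresholds and 2 reads added. Python 3.11.15, numpy 2.4.6, scipy 1.17.1, pandas 2.3.3 and matplotlib 3.10.9 were used.

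The unigenes and lists were chosen with earlier results of these data known. Named are all DEUs of the set, its 25 best-read unigenes, the best-read unigene of each role and subunit, the unigenes of the study's carbonic anhydrase reaction, and the DEUs of neighbouring lists where a list had 6 or fewer. The unigenes of other wording, the V-type unigenes found by GO terms and the wording of their names were added after values had been seen.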

Additional observations from a re-analysis of the deposited data

How the results depend on the processing

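TMM scaling, median-of-ratios scaling (whose factors came out at 1 for both libraries, so that it equals unscaled counts), a minimum of 10 reads and Fisher's exact test each left 3 DEUs among the 26 unigenes, and these were the same unigenes. When the coefficient of variation between libraries was preset to 0.2 or 0.4 the count was 0, where 295 and 8 of all unigenes were DEUs, and with a log2 limit of 2 it was 0. An adjusted p limit of 0.05 gave 4, the added one, subunit H Unigene25373_A0A, being higher in C1. Adding the unigenes of other wording raised the count to 7, and the V-ATPase count went from 3 to 8 with other wording and GO terms, both choices made after seeing the data. TMM moved every log2 ratio by -0.17 and median-of-ratios by -0.15, and the split of all DEUs went from 1115 higher and 816 lower to 730 and 1053 with TMM and to 757 and 989 with median-of-ratios. With TMM and median-of-ratios respectively, the median of the 26 went from -0.31 to -0.48 and -0.46, the V1 median from -0.24 to -0.41 and -0.39, the summed V1 ratio from -0.60 to -0.77 and -0.75, and the summed V-ATPase ratio from -0.60 to -0.77 and -0.75. Without the best-read unigene these sums were -0.88 and -0.77, and the sum of the sodium/hydrogen exchangers went from 0.10 to -0.40. Their median went from -0.05 to 0.60 with at least 50 reads, where 1 unigene is left. No paired analysis was possible because each group has 1 library, and leaving out a replicate was not possible for the same reason. Unigenes with few reads limit the exchangers, calcium pumps and carbonic anhydrases, and the unknown spread between libraries of a group limits every call.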

Other observations

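Among the proteins that direct or report on the pumps, the read numbers were low: 0 unigenes carried the term renin receptor, an accessory protein of the V-ATPase, while 7 carried rabconnectin and 4 carried DmX-like, which assist its assembly in animals, and none of these was a DEU. Hepatopancreas markers, in 35 unigenes, held 1629 reads in C0 and 1656 in C1 (summed log2 ratio 0.17), and epidermis markers, in 18 unigenes, held 2178 and 4101 (summed log2 ratio 1.06). The epidermis sum came mostly from the term cuticle protein, with 2153 and 4054 reads, and over the 8 unigenes with at least 10 reads the median log2 ratio was 0.28, with 3 under 0. Hemocyte markers, in 21 unigenes, held 14177 and 16618 reads (summed log2 ratio 0.38). With 2 DEUs lower in C1, the list stands beside 1.7% of all unigenes tested and 6.4% of those with at least 50 reads. By term, in reads not scaled to library size, anti-lipopolysaccharide factor had 11165 and 14647, prophenoloxidase 1415 and 760, and crustin 826 and 715. Transglutaminase had 528 and 369, peroxinectin 180 and 65, and hemocytin 63 and 62. Over the 18 hemocyte unigenes with at least 10 reads the median log2 ratio was -0.32, with 10 under 0.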
